A study of Drosophila melanogaster with 2 samples.

Results

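The cuticle protein genes of Drosophila melanogaster encode the structural proteins of the insect exoskeleton. They were taken by name, as the protein-coding genes on the 6 main chromosome arms whose symbol begins with Cpr and a digit, Lcp, Twdl, Edg, Acp65 or Pcp. This rule gave 115 of 13945 protein-coding genes: 70 Cpr genes, 25 Twdl genes, 15 Lcp genes, 3 Edg genes, Acp65Aa and Pcp. The study mapped genome binding of Rotund (rn), a zinc finger transcription factor, by chromatin immunoprecipitation with sequencing (ChIP-seq). Whole pupae of the strain rn-GFP, which express an rn-eGFP fusion protein, were used with an anti-GFP antibody, and the only group had 2 biological replicates. Beyond naming pupae, the labels give the stage as unknown and the sex as not collected, and control libraries were not analysed here. Whole animals mix epidermis with every other tissue, so weak binding in all cells and strong binding in a few cannot be told apart.

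Insect cuticle is a layered matrix of chitin fibres and proteins that epidermal cells secrete anew before each moult. Most proteins of the Cpr and Lcp groups carry the Rebers-Riddiford consensus, a stretch that binds chitin, while the Tweedle (Twdl) proteins form a separate family known for its effect on body shape. Pulses of the steroid hormone ecdysone and the nuclear receptors it induces set when each gene is switched on, so larval, pupal and adult cuticle use different members. Rotund is known for its part in the patterning of legs, wings and antennae.

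The deposited peak lists over both replicates were a ranked list of 126185 peaks on the arms, a thresholded set of 3774 and a conservative set of 3613. Every thresholded peak was also in that ranked list. A second ranked list over both replicates held 112682 peaks. Each replicate had its own ranked list (68133 and 61965 peaks) and its own thresholded set (2375 and 2112 peaks). A peak was given to a gene when its summit lay in the gene body or up to 5 kb upstream, so neighbouring genes can share a peak. Peak height is given as the authors' signal value, which is not scaled between lists. The lower quartile, the median and the upper quartile of signal in the thresholded set were 60.1, 79.7 and 119.

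Peaks were called at 7 places near these genes in the sets over both replicates, and the DNA under 5 of the summits is shown because the called peaks described further on are these places (the other 2 are those of Cpr51A). Each stretch is 101 bp of the plus strand of dm6, centred on the summit. Capitals mark TTAAAA or AAAAAAA on either strand, A-rich words searched at every summit of the thresholded set. The sequences, like those further on, are from the Release 6 reference genome (RefSeq).
Cpr76Bb and Cpr76Bc, chr3L:19516664-19516764: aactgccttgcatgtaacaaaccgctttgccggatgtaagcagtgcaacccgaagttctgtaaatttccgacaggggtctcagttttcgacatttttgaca
Cpr62Bc, chr3L:1844741-1844841: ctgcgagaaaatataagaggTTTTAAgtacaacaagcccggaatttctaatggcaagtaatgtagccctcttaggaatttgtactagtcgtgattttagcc
Cpr97Ea, chr3R:27084876-27084976: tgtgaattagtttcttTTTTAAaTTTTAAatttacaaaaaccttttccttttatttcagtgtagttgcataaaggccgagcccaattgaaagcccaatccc
Cpr65Au and Lcp65Ag3, chr3L:6131974-6132074: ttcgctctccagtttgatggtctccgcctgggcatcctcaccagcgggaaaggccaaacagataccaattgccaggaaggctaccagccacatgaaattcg
Acp65Aa and Cpr65Ax2, chr3L:6155267-6155367: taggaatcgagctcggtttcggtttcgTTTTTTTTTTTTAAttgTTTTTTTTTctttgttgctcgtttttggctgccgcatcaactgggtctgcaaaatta

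Of these 5 stretches, those near Cpr62Bc, Cpr97Ea and Acp65Aa held a marked word and those at Cpr76Bb and Cpr65Au held none. Over the 3774 thresholded summits, 30.4% had TTAAAA, 17.7% had AAAAAAA and 41.7% had at least 1 of them. The stretch at Cpr65Au had the most G and C, at 54.5%, and those at Cpr76Bb, Cpr62Bc, Acp65Aa and Cpr97Ea had 45.5%, 38.6%, 36.6% and 31.7%. The lower and upper quartiles over all thresholded summits were 27.7% and 40.6%, so the Cpr65Au and Cpr76Bb stretches lay above that range.

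Rotund peaks were scarce at cuticle protein genes. A thresholded summit lay in the body or 5 kb upstream of 6 of the 115 genes, or 5.22% (95% Wilson interval 2.41% to 10.9%), where 27.1% of all protein-coding genes had one. This interval counts genes as independent, but the 6 genes held 4 distinct summits, so it is too narrow. The 6 genes were Cpr76Bb, Cpr76Bc, Cpr62Bc, Cpr51A, Cpr65Au and Lcp65Ag3. In the conservative set 7 of the 115 genes, or 6.09%, had a summit against 26.4% of all genes. In replicate 1 alone the thresholded set reached 2 genes, or 1.74%, against 19.4%, and in replicate 2 alone 3 genes, or 2.61%, against 18.3%. The share was below the background in all 4 sets.

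Cuticle protein genes are short, with a median body of 983 bp (range 413 to 18590 bp) against 2166 bp for all genes, so their windows were narrower. Among the 3438 protein-coding genes whose body lay between the cuticle genes' lower and upper quartiles of length (726.5 and 1530 bp), 18.9% had a thresholded summit. Chemoreceptor genes (odorant, gustatory and ionotropic receptors), another set of tissue-specific genes in small clusters, had one at 20 of 179 genes, or 11.2%. Cytosolic ribosomal protein genes, active in every cell, had one at 36 of 88, or 40.9%. The cuticle protein share was thus the lowest of these groups in the thresholded set.

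**Figure D1:**
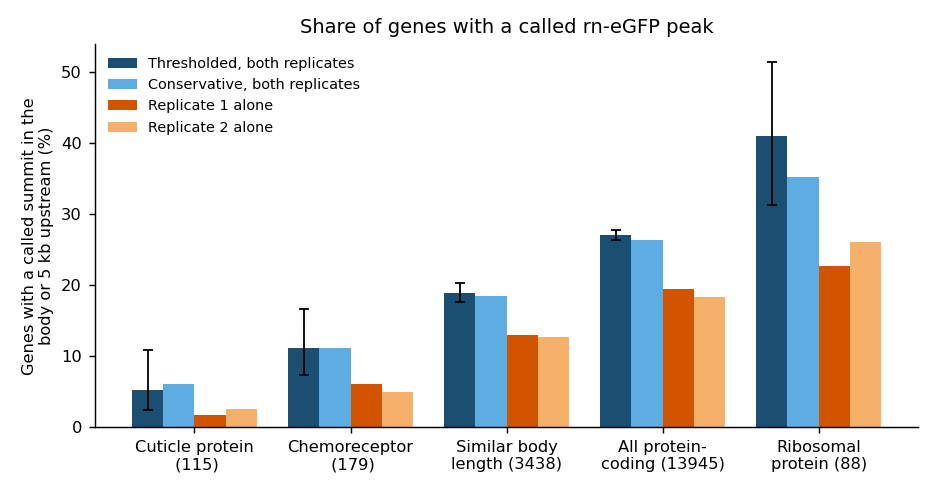
Percent of genes (y axis) with a called summit in the body or 5 kb upstream in 5 groups of genes (x axis, number of genes in brackets), for the thresholded and conservative sets over both replicates and for each replicate alone. Black bars are 95% Wilson intervals for the thresholded set, which cover counting error only and count genes as independent though neighbours share peaks. Cuticle protein genes stood at 5.22% and all protein-coding genes at 27.1%.

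Closer to the gene the shares were lower still. With 1 kb upstream in place of 5 kb, 1 cuticle protein gene had a thresholded summit, or 0.870%, against 18.3% of all genes and 9.37% of those of similar length. Within 500 bp of the gene start, 1 cuticle protein gene, Cpr65Au, had one, against 10.3% of all genes and 8.06% of those of similar length. Chemoreceptor genes were about as low, with 2 of 179, or 1.12%, at 1 kb upstream and 0 of 179 within 500 bp of the start. The near absence close to the gene was thus not particular to cuticle protein genes. Counted once per peak, the merged windows of the 115 genes covered 544.5 kb and held 4 thresholded summits, or 7.35 per Mb (exact 95% Poisson interval 2.00 to 18.8). All protein-coding windows merged held 32.3 per Mb and the arms as a whole 28.2 per Mb.

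Weak peaks were not scarce there. The same 544.5 kb held 541 summits of the ranked list, of which 537 had a score below the threshold. This was 0.994 ranked summits per kb, beside 0.988 per kb over all protein-coding windows. In bins of 500 bp from 5 kb before to 2 kb after the start, cuticle protein genes had between 0.374 and 0.583 ranked summits per gene and bin, and all genes between 0.507 and 0.551. The highest of the cuticle protein bins was that from the start to 500 bp after it, at 0.583, where all genes had 0.539. The same bin was the highest in replicate 1, at 0.339, but in replicate 2 the bin farthest upstream was higher, at 0.348. Of the 541 summits, 181 lay within 500 bp of an annotated transcript start, 107 in coding exons, 28 in other exons, 71 in introns and 154 between genes. No such breakdown over all genes stands beside these counts, so none can be called high or low.

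In the sets over both replicates the called peaks fell at 7 places, 4 of them in the thresholded set and 6 in the conservative set. Both sets shared 3 of them: the peaks near Cpr76Bb, Cpr62Bc and Cpr51A. In all, 9 genes had a summit of either set and 106 had none. Over all protein-coding genes, 27.1% had a thresholded summit and 26.4% a conservative one.

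The strongest belonged to the Cpr76B cluster, a row of 4 Rebers-Riddiford genes on arm 3L. Its peak, chr3L:19516566-19516861 in dm6, had a signal of 91.6 over both replicates, 48.5 in replicate 1 and 44.8 in replicate 2, and was in the thresholded set of each replicate. The summit lay between genes, 2935 bp upstream of Cpr76Bb and 4231 bp upstream of Cpr76Bc. The nearest gene start was that of Cpr76Ba, 1618 bp away, but that gene is on the other strand and the summit lies downstream of it, so it was not counted. Of the 7 places, it was the only one in both replicates' own thresholded sets.

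A peak of nearly the same height stood upstream of Cpr62Bc, the last of 3 Cpr62B genes. The interval chr3L:1844643-1844938 had a signal of 91.1, with 41.3 in replicate 1 and 46.1 in replicate 2. Only replicate 2 had it in its own thresholded set. The summit was intergenic and 2707 bp upstream of Cpr62Bc.

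Cpr51A, a single gene on arm 2R, had a pair of called peaks. The stronger, chr2R:14518203-14518498, had a signal of 70.0, with 33.0 and 31.8 in replicates 1 and 2, and lay 3140 bp upstream between genes. The weaker, chr2R:14514769-14515064, was in the conservative set only, at 45.7, with 25.8 and 23.6 in the replicates. Its summit lay 294 bp inside the Cpr51A gene and in an exon of CG30197. Neither peak was in a replicate's own thresholded set.

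The only thresholded summit within 500 bp of a gene start was that of Cpr65Au, in the large Lcp65A and Cpr65A cluster. The interval chr3L:6131876-6132171 had a signal of 51.0, below the lower quartile of the thresholded set, and its summit lay 85 bp after the Cpr65Au start in the coding exon. Replicate 1 had a peak there of 36.2 and replicate 2 had no overlapping ranked peak. The score over both replicates was 960 in the main ranked list and 191 in the other ranked list, and the conservative set left it out. It also lay 1035 bp upstream of Lcp65Ag3 and in an exon of the antisense transcript asRNA:CR46005. ChIP-seq gives no strand, so the sense gene and the antisense transcript cannot be told apart.

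A further 2 places were called in the conservative set alone. In an intron of Cpr97Ea, chr3R:27084778-27085073 had a signal of 51.8, with 24.5 and 25.0 in replicates 1 and 2, and scores of 634 and 837 in the main and the other ranked list. Upstream of Acp65Aa, which encodes a protein of adult cuticle, chr3L:6155169-6155464 had a signal of 47.2, with 24.2 and 27.1 in the replicates and scores of 112 and 860. That summit was 2572 bp upstream of Acp65Aa, 4460 bp upstream of Cpr65Ax2 and 114 bp from the start of the noncoding RNA gene lncRNA:CR45421. At both places the scores of the ranked lists fell on opposite sides of 830, the lowest score of the thresholded set.

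Just below that threshold stood an intron peak of Cpr76Bc, chr3L:19524842-19525137, with a score of 824, an irreproducible discovery rate of 0.0103 and a signal of 50.8 (19.6 in replicate 1 and 35.9 in replicate 2). Replicate 2 had it in its own thresholded set, with a score of 866, which made it the only place called in a replicate alone. A peak of the same height, 50.8, at the start of Cpr47Ee and upstream of Cpr47Ed scored 62, with 31.8 in replicate 1 and 17.3 in replicate 2. Equal heights over both replicates thus went with very different scores.

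The strongest ranked peak of each gene was compared as a measure that needs no threshold, with a gene without any ranked peak set to 0. Over the 115 cuticle protein genes the lower quartile, median and upper quartile were 25.4, 31.2 and 37.8. Over all protein-coding genes they were 27.5, 35.7 and 56.6, and over genes of similar length 25.1, 32.3 and 43.4. The medians of cuticle genes and of genes of similar length were close, and the upper tails were not: the 90th percentile was 44.8 for cuticle protein genes, 83.4 for genes of similar length and 117 for all. The median was below that of all genes in each replicate too, at 18.3 against 21.5 in replicate 1 and 16.1 against 19.3 in replicate 2. Genes of similar length were closer, at 19.1 in replicate 1 and 17.3 in replicate 2. Chemoreceptor genes had a median of 30.6 and a 90th percentile of 51.6 over both replicates, near the values of cuticle protein genes. A signal at or above the lower quartile of the thresholded set was reached by 4 cuticle protein genes, or 3.48%, against 23.4% of all genes.

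**Figure D2:**
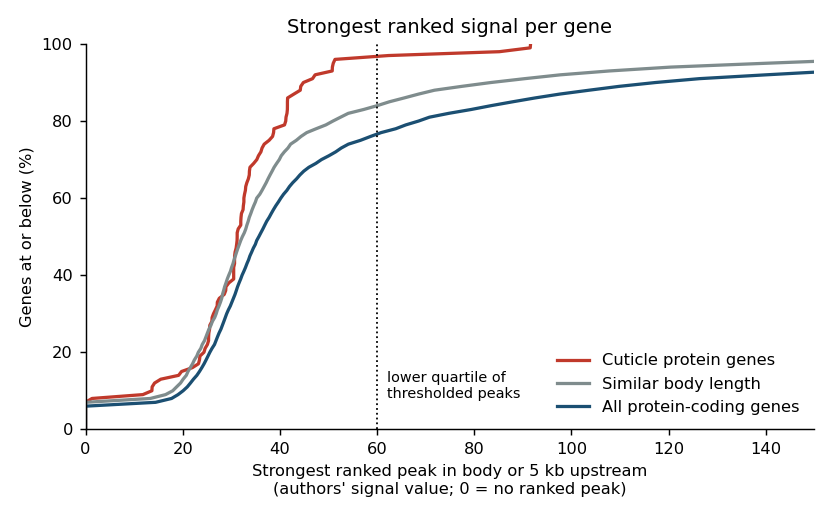
Percent of genes (y axis) whose strongest ranked peak in the body or 5 kb upstream was at or below the signal on the x axis (authors' value, both replicates; 0 is no ranked peak), for cuticle protein genes, genes of similar body length and all protein-coding genes. The dotted line is the lower quartile of the thresholded set, 60.1; the cuticle curve runs close to that of genes of similar length up to its median of 31.2 and then rises above both others.

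By family, the larval cuticle proteins had the lowest values. Of the 15 Lcp genes, 11 had a ranked peak, with signals from 13.6 at Lcp65Ag2 to 51.0 at Lcp65Ag3, and the family median was 15.7 with the others at 0. The 51.0 is the peak at the start of Cpr65Au next door. In 7 of the 15, over 10% of the body was duplicated sequence, and the part of this in the low values was not tested. Lcp9, a single gene, had 32.0, with 21.8 in replicate 1 and 16.7 in replicate 2.

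Pcp and the 3 Edg genes had no called summit, which at 4 genes says little beside the 18.9% of genes of similar length. Pcp, the pupal cuticle protein gene that lies inside the purine synthesis gene Gart, had 32.5, with 26.4 in replicate 1 and 12.2 in replicate 2. Edg78E, Edg84A and Edg91 are named for their response to ecdysone. Edg91 had 32.8 (17.6 and 18.6 in replicates 1 and 2), Edg78E 28.9 (11.6 and 12.5) and Edg84A 24.6 (5.16 and 14.8). All of these lay below the median of all genes.

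Among the 70 Cpr genes, 67 had a ranked peak, from 13.7 to 91.6 with a median of 33.0 over the family, and 5 had a thresholded summit. Of the 25 Twdl genes, 22 had a ranked peak, from 11.2 at Twdlalpha to 41.5, and none had a summit in the thresholded, conservative or replicate sets. A count of 0 of 25 allows a share of up to 12% (3 counts of the total). That limit counts genes as independent, but 12 of the 25 lie in 1 cluster with shared peaks, so it is too low. Of genes of similar body length, 18.9% had a thresholded summit, and of all genes 27.1%. The 10 genes with the strongest ranked peaks were Cpr76Bb, Cpr76Bc, Cpr62Bc, Cpr51A, Cpr97Ea, Cpr65Au, Lcp65Ag3, Cpr47Ed, Cpr47Ee and Acp65Aa. Cpr65Ax2 shared the peak of Acp65Aa and so tied for the last place.

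Cuticle protein genes lie in groups, and 84 of the 115 had another member within 10 kb, edge to edge, in 17 clusters. A thresholded summit was given to 5 of the 84 clustered genes, or 5.95%, and to 1 of the 31 single genes, or 3.23%. The 5 clustered genes held 3 distinct summits. The difference of 2.73 percentage points had a 95% interval (Newcombe) of -10.7 to 10.4. This interval counts genes as independent, though neighbours share peaks, so it is too narrow. At these numbers no difference was detectable. The sign of the difference turned with 10 kb upstream (-0.999 points) and with a cluster gap of 5 kb (-0.277 points). The median strongest signal was 31.2 for clustered and 31.1 for single genes. Of the 17 clusters, 3 held a thresholded peak: those of Cpr62B, Cpr76B and Lcp65A with Cpr65A.

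The 3 clusters of at least 5 genes had median signals from 28.8 to 33.7. The 18 genes from Lcp65Ag3 to Cpr65Az, across 31.2 kb of arm 3L, had a median of 28.8. They ran from 13.6 at Lcp65Ag2 to 51.0 at the peak shared by Lcp65Ag3 and Cpr65Au. The 7 Cpr47E genes on 2R ran from 21.6 at Cpr47Ec to 50.8, shared by Cpr47Ed and Cpr47Ee, with a median of 33.7. The 12 Twdl genes from TwdlM to TwdlD on 3R had a median of 31.2. They ran from 25.3, shared by TwdlR and TwdlS, to 41.5, shared by TwdlB, TwdlJ, TwdlL and TwdlP. That last summit lay 299 bp after the TwdlL start. Neighbours often shared a peak: the 105 genes with a ranked peak had 80 distinct strongest peaks, and 42 genes shared theirs with another member.

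**Figure D3:**
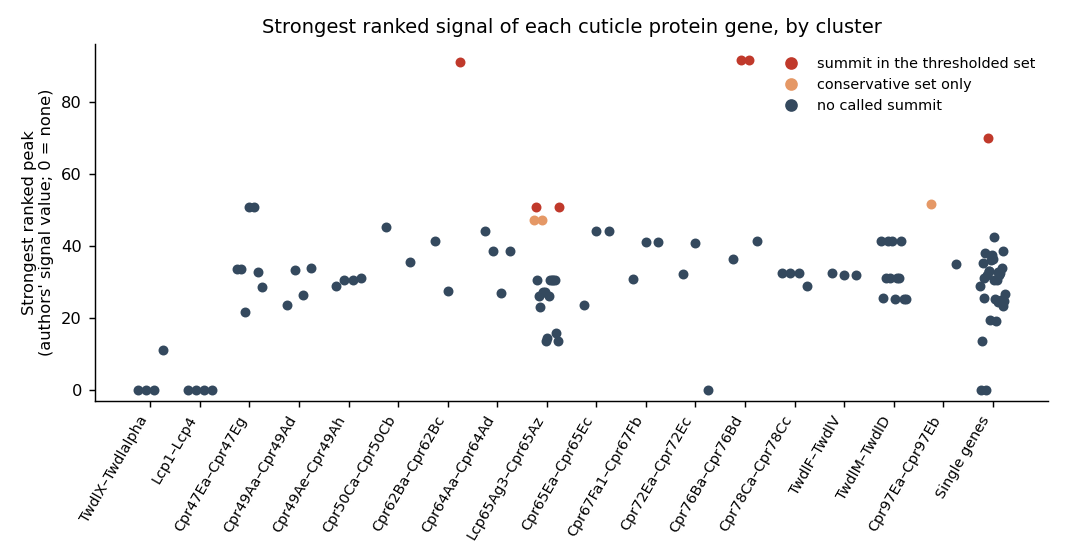
Strongest ranked signal over both replicates (y axis, authors' value; 0 is no ranked peak) of each of the 115 genes, 1 point a gene, by cluster along the arms and for single genes (x axis). Colours mark genes with a thresholded summit, a conservative summit only or neither; the highest points, 91.6 and 91.1, are in the Cpr76B and Cpr62B clusters, and Lcp1 to Lcp4 and TwdlX to TwdlZ are at 0.

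Several of these genes are near-copies, and reads from identical stretches cannot be placed with certainty. In 18 of the 115, over 10% of the 31-base words of the body occurred elsewhere in the genome. Lcp65Ab1, Lcp65Ab2, Cpr65Ax1 and Cpr65Ax2 were wholly duplicated at this length, and Lcp65Ag1, Lcp65Ag2 and Lcp65Ag3 were duplicated over 68.5%, 60.1% and 60.4% of their bodies. Lcp65Ab1 and Lcp65Ab2 had strongest signals of 14.4 and 26.0, and Cpr65Ax1 and Cpr65Ax2 had 23.2 and 47.2. All of these peaks lay upstream, outside the duplicated bodies, and were shared with neighbours. The 14.4 and 26.0 were also the strongest within 500 bp of the Lcp65Ac and Lcp65Ad starts. The 23.2 and 47.2 also lay in the window of Acp65Aa. Duplicated words made up 0.0718%, 0.0701% and 0.0% of the windows of Lcp65Ac, Lcp65Ad and Acp65Aa. Whether the duplicated bodies themselves hold a peak is uncertain. How the aligner treated reads from identical stretches is not given in the sources used here. Without the 18 genes, 5.15% of the others had a thresholded summit.

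No ranked summit at all was found in the windows of 10 cuticle protein genes, or 8.70%, against 6.38% of all protein-coding genes (71 of the 80 genes on arm 4 included). Of genes of similar body length, 7.42% had none. The 10 cuticle protein genes are named next. They were Lcp1, Lcp2, Lcp3, Lcp4, TwdlX, TwdlY, TwdlZ, Cpr72Ec, Cpr11A and Cpr31A. The first 7 also had no ranked peak in either replicate's own list. The others did: Cpr31A had 13.0 in replicate 1 and 15.3 in replicate 2, Cpr72Ec had 21.2 in replicate 2 and Cpr11A had 9.18 in replicate 2.

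Lcp1 to Lcp4 are the classic larval cuticle genes of arm 2R. They lay in a stretch of 27.0 kb without a ranked summit, chr2R:8427563-8454567, that held 8 protein-coding genes, and in the replicates' own lists the stretch was 23.7 and 23.1 kb long. The median distance between neighbouring ranked summits was 0.68 kb, and 177 of 126179 distances were at least that long. Only 0.911% of the 31-base words in the stretch were duplicated, and 40 of the 177 distances lay in sequence at most 10% duplicated.

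TwdlX, TwdlY and TwdlZ, inside the gene goe on the X chromosome, lay in a stretch of 20.5 kb, chrX:16723363-16743818, with 21.3 and 19.8 kb in the replicates. Here 0.147% of the 31-base words were duplicated, and 314 distances were at least as long. Both stretches were long in each replicate and in sequence that is largely unique. They were picked because their genes had no ranked summit, so their length follows in part from the choice.

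On the X chromosome, 4 of 8 cuticle protein genes had no ranked peak, where 5.69% of all X-linked protein-coding genes had none. TwdlX, TwdlY and TwdlZ are neighbours in 1 stretch and the fourth was Cpr11A. The strongest signal was 35.3 at Cpr12A, 19.6 at Cpr5C, 13.7 at Cpr11B and 11.2 at Twdlalpha, and the median over all X-linked genes was 32.0.

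Signal in the replicates was compared for the 96 genes with a ranked peak in both. Across these genes, which share libraries and in part share peaks, Pearson's r was 0.549 and Spearman's rho 0.303. Over the 12552 protein-coding genes with both, rho was 0.699. Cuticle protein genes span a narrower range of signal, with a 90th percentile over both replicates of 44.8 against 117 for all genes. The part of this range in the lower rho was not tested. The few strong genes, Cpr76Bb and Cpr76Bc (1 shared peak), Cpr62Bc and Cpr51A, were high in both replicates. They were picked by their signal over both replicates, so this follows in part from the choice. Cpr65Au was among the highest in replicate 1, at 36.2, and had 11.4 as its strongest peak anywhere in the window in replicate 2.

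**Figure D4:**
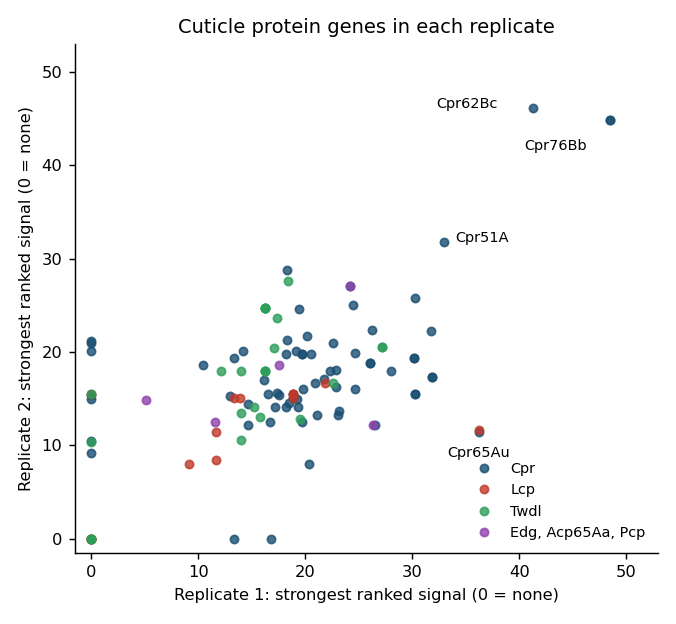
Strongest ranked signal of each cuticle protein gene in replicate 1 (x axis) and replicate 2 (y axis), in the authors' signal value with 0 for no ranked peak; points are genes, coloured by family. The signal is not scaled between the lists, so only the order along each axis can be read. Cpr76Bb (48.5 and 44.8, on the same point as Cpr76Bc), Cpr62Bc (41.3 and 46.1) and Cpr51A (33.0 and 31.8) stand apart from most genes on both axes.

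Cuticle protein genes shared a promoter feature that the name rule did not use. The TATA box, a core promoter sequence found at genes that are switched strongly on and off, was searched as TATAAA on the gene's strand with its first base 45 to 20 bp before the annotated start. Only this exact word was counted, so genes given here as without the box can hold a related word. TATAAA was there in 70 of the 115 genes, or 60.9%, against 1229 of 13945 protein-coding genes, or 8.81%. The shares were 8.38% for chemoreceptor genes and 1.14% for ribosomal protein genes. It was found in 39 of 70 Cpr, 15 of 25 Twdl and 11 of 15 Lcp genes, in all 3 Edg genes, in Acp65Aa and in Pcp.

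The 60 bp before the start are shown for 8 genes on the gene's own strand, to set genes with the TATA box beside Cpr65Au, which had the only thresholded summit at a start, and Cpr76Bb, which had the strongest peak upstream. Capitals mark TATAAA on either strand.
Acp65Aa, chr3L:6152746-6152805, minus strand: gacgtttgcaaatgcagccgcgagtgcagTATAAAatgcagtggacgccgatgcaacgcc
Pcp, chr2L:7021622-7021681, plus strand: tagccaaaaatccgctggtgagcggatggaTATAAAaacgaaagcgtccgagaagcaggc
Edg78E, chr3L:21297804-21297863, minus strand: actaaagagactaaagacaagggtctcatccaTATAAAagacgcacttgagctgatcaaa
Edg84A, chr3R:6684385-6684444, plus strand: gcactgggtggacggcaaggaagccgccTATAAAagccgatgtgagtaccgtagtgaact
Edg91, chr3R:17611512-17611571, minus strand: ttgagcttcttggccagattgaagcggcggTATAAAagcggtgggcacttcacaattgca
TwdlX, chrX:16731031-16731090, plus strand: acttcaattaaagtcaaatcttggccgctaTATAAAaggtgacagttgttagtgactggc
Cpr65Au, chr3L:6132110-6132169, minus strand: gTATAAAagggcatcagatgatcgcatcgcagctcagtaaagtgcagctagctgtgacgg
Cpr76Bb, chr3L:19519589-19519648, plus strand: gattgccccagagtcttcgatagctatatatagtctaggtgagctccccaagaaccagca

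In the first 6 of these the TATA box began 31, 30, 28, 32, 30 and 30 bp before the start, in the order printed. In Cpr65Au the same letters began 59 bp before the annotated start, outside the range searched. Cpr76Bb had no TATAAA in these 60 bp, but its print holds the related tatatata, which was not searched. A match is a description of the letters and not of a factor bound there.

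Across all genes, those with the TATA box had fewer Rotund summits at the start. A thresholded summit lay within 500 bp of the start in 39 of 1229 genes with it, or 3.17%, and in 11.0% of the 12716 genes without it. In the body or 5 kb upstream the shares were 13.5% and 28.4%. Genes with the box were shorter, with a median body of 1130 bp against 2292 bp. At similar body length the shares in the body or 5 kb upstream were 12.9% with it and 19.7% without. Among cuticle protein genes, 3 of 70 with the box (4.29%) and 3 of 45 without it (6.67%) had a thresholded summit, where 14.1% of the other genes with the box had one.

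**Figure D5:**
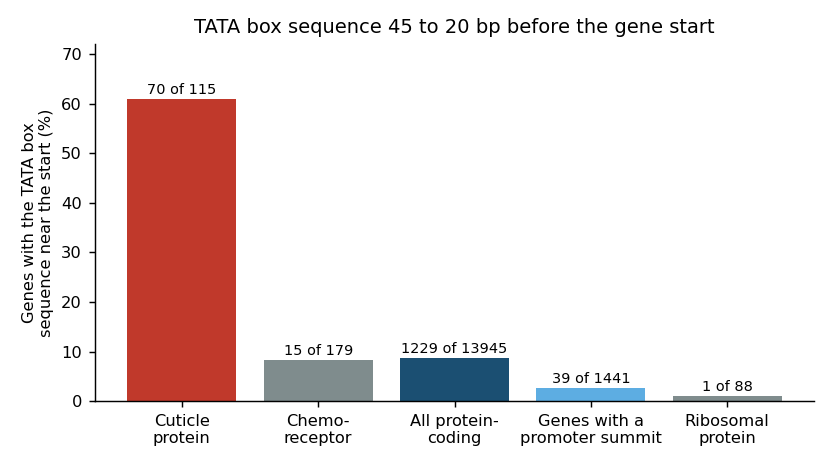
Percent of genes (y axis) with TATAAA on the gene's strand 45 to 20 bp before the annotated start in 5 groups of genes (x axis), with counts above the bars. Cuticle protein genes reached 60.9%, all protein-coding genes 8.81% and genes with a thresholded summit within 500 bp of the start 2.71%.

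Counts differed among other genes that build, colour or control the cuticle. They were listed from their known roles, but with earlier results of these data known, so the lists were not blind to the peaks. Of 19 genes for chitin synthesis and modification, 4 had a thresholded summit in the body or 5 kb upstream, where 27.1% of all genes and 34.1% of genes of such length had one. The conservative set had 2 of the 19, replicate 1 alone 4 and replicate 2 alone 2. The 4 genes with a thresholded summit were Cht7, a chitinase gene, with a strongest signal of 127 (74.8 and 54.2 in replicates 1 and 2), knk, needed for chitin organisation, with 104 (46.3 and 55.6), mmy, for the chitin precursor UDP-N-acetylglucosamine, with 68.7 (44.9 and 36.4), and verm, a chitin deacetylase gene, with 55.1 (39.9 and 22.2). For tanning and pigment the count was 2 of 9, Pu, for a pteridine precursor, at 52.2 and y, for black pigment, at 43.4, beside 34.7% of genes of such length. Neither gene was in the conservative set, which had a summit at Ddc instead, and none of the 9 was in a replicate's own thresholded set. These genes are longer than cuticle protein genes, with median bodies of 5367 and 5744 bp.

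Genes for apical matrix proteins with a zona pellucida domain, which tie the cell surface to the cuticle, had a thresholded summit in 5 of 10, led by dpy at 173, dy at 130, dyl at 126 and pio at 75.6. Of 12 regulators of cuticle genes, 10 had one, with the strongest at Hr4, then Eip75B at 236, Hr3 at 165 and Eip74EF at 161. Hr4, Eip75B and Hr3 encode nuclear receptors and Eip74EF an ETS factor of the ecdysone response. In replicates 1 and 2 the strongest signals were 121.5 and 126.7 at Hr4, 120.5 and 113 at Eip75B, 84.9 and 82.4 at Hr3, and 83.8 and 64.3 at Eip74EF. These gene bodies are long, from 21112 bp at Blimp-1 to 113744 bp at Eip75B, and their windows far wider. Of all genes 27.1% had a thresholded summit, but of genes with bodies between the lower and upper quartiles of the regulators' lengths 59.7% did, and for the matrix genes' lengths 46.0%. The 7 Ccp84A genes, Rebers-Riddiford genes that the name rule leaves out, had 0 thresholded summits, a count that by the same limit allows a share of up to 42.9%, and strongest ranked signals from 15.3 at Ccp84Ab to 42.9 at Ccp84Ag.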

How the data were processed

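ChIP-seq peak lists of 2 biological replicates of 1 group were used. Per the labels, chromatin was sonicated to a size range of 200 to 800 bp and peaks are on dm6. The labels name neither the aligner nor the peak caller, nor how the thresholded and conservative sets differ: not given in the sources used here. In the deposited lists the score is an IDR (irreproducible discovery rate, how poorly a peak recurs in paired calls) that the authors rescaled, with 1000 as its top; the lowest thresholded score, 830, is an IDR of 0.01. The deposited signal, the height from the authors' peak calling, is not scaled between lists, so levels were ranked and summarised within a list and replicate values stand side by side. The deposited ranked lists also hold the −log10 of the IDR; 32 further columns without names were not used. Reads were not analysed here, so depth is unknown, and intervals cover counting error only, with neighbouring genes sharing peaks.

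Summits (peak start plus offset) were placed on Ensembl release 115 gene models (BDGP 6.54), on arms X, 2L, 2R, 3L, 3R and 4, with 1-based coordinates. All 115 genes had the same start and end in RefSeq. The assignment, cluster and window code was tested on simulated data. No test was run: with 1 group, counts and medians stand beside those of all protein-coding genes. Members and lists were chosen with earlier results of these data known. Named were all genes with a called summit, the 10 strongest and all without a ranked peak, the strongest and weakest of clusters of at least 5, up to 4 genes with a peak a list, and a fixed set (Acp65Aa, Pcp, the Edg genes, Lcp1 to Lcp4, Cpr65Au); others were chosen after their values were seen. Protein sequences were not analysed here, and 1 list name, tan, was not matched beside t, the same gene. Scripts ran under Python 3.11.15 with scipy 1.17.1, pandas 2.3.3, matplotlib 3.10.9 and numpy 2.4.6.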

Additional observations from a re-analysis of the deposited data

Results flagged for a closer look

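Signal appeared at 3 places outside the thresholded set, the main measurement, as peaks of the conservative set alone. The strongest was the intron peak of Cpr97Ea, at a signal of 51.8. The others were the peak upstream of Acp65Aa, at 47.2, and the peak inside Cpr51A, at 45.7. All 3 had a ranked peak in each replicate, and none was in a replicate's own thresholded set.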

How the results depend on the processing

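The count of 6 cuticle protein genes with a summit was 2 to 3 with either replicate left out, 3 at an IDR of at most 0.001, and 1, 2 and 14 with 1, 2 and 10 kb upstream; the share over all genes was higher under each of these settings (18.3%, 19.4%, 18.1%, 18.3%, 20.7% and 36.6% against 2.61%, 1.74%, 2.61%, 0.870%, 1.74% and 12.2%, in the order replicate 1 left out, replicate 2 left out, IDR, 1, 2 and 10 kb). It was 4 to 7 under the other 5 settings tried, 1 of which, without genes over 10% duplicated, was added after the data were seen. The excess of clustered over single genes, 2.73 percentage points, turned to -0.999 with 10 kb upstream and to -0.277 with a cluster gap of 5 kb, and was 2.38 to 3.57 with either replicate left out. Peaks per Mb of the genes' windows, 7.35 in the thresholded set, were 1.84 to 5.51 with either replicate left out, the lower value from replicate 1 alone. The median strongest signal of cuticle protein genes over that of all genes, which have longer bodies, was 0.875. This ratio was 0.830 to 0.851 with either replicate left out and 0.961 within 500 bp of the start. The cause of these shifts was not tested. With 4 distinct thresholded peaks, each peak moves every count. No paired analysis was possible because there is a single group.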

Other observations

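Other core promoter words differed less, or the other way, between cuticle protein genes and all genes in the 300 bp from 250 before to 50 after the start, on both strands. TATCGATA, the DRE element of genes active in most cells, was in 0.870% of cuticle protein genes and 9.36% of all genes, and GGTCACACT, also typical of such genes, in 0 of 115 and 6.05%. The initiator-like TCAGTT was in 29.6% and 26.1%, AAAAAAA in 23.5% and 26.7%, and TAATTA, a core of homeodomain sites, in 15.7% and 20.4%. CAAGGTCA and CAAGGCCA, sites of the nuclear receptor type, were in 1 and 0 cuticle protein genes and in 0.495% and 0.488% of all genes. TATAAA at any place in the window was in 74.8% and 45.8%, and words such as TATAAA and TTAAAA can overlap A-rich runs.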
